A study of Homo sapiens with 6 samples.

Results

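The genes examined are 7 transcription factor genes of medial ganglionic eminence interneurons, NKX2-1, LHX6, LHX8, MAF, SATB1, ZEB2 and MEF2C, out of 20033 protein-coding genes of the RefSeq gene table for GRCh38.p14. They were chosen by name, and all peaks in the gene body or within 5 kb of either end were taken for each. The peaks come from CUT&RUN, in which an antibody tethers a nuclease to a chromatin protein and the DNA cut free around it is sequenced. Every library was made from cells of H1, a human embryonic stem cell line, labelled WT, at day 30, and the antibody is the only labelled difference between the groups. The MYT1L antibody was used in 4 libraries, and IgG, which has no chromatin target and measures background, in 2. The series calls the cells stem cell-derived cortical interneurons, but each sample carries the cell type label embryonic stem cells. The series measures no RNA, so neither description could be checked against marker genes, and nothing here says whether the 7 genes were expressed. The labels do not say that the replicates were separate cultures of this 1 line, so any p-value measures only the spread between these libraries.

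The medial ganglionic eminence is the ventral forebrain domain that produces most parvalbumin and somatostatin interneurons of the cortex. Sonic hedgehog signalling induces NKX2-1 there, NKX2-1 activates LHX6 and LHX8, and later factors such as MAF, SATB1, ZEB2 and MEF2C act as the cells migrate and mature. MYT1L is a zinc-finger protein of postmitotic neurons, known for repressing genes of other lineages, and its family recognises sequences with the core AAGTT.

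The MYT1L lists held 36 peaks at the 7 genes and the IgG lists held 0. Of the 36, 9 were from MYT1L replicate 1, 3 from replicate 2, 5 from replicate 3 and 19 from replicate 4. A peak is called when the fragments piled up at its summit exceed a local background. Its fold is the ratio of those quantities after 1 is added to each. All 7 genes had a peak in at least 1 MYT1L library, as did 84.1% of all protein-coding genes, and all 7 had one in replicate 4, where 77.6% of all genes had one. In replicate 1 it was 5 of the 7 genes against 68% of all genes, in replicate 2 it was 3 against 43%, and in replicate 3 it was 4 against 57.3%. The 7 genes thus held peaks about as often as genes at large in replicates 1 to 3. A peak was found in 1.61% of all genes in IgG replicate 1 and in 2.9% in IgG replicate 2, and in 4.16% in at least 1 of these, so 0 of 7 genes is also near the background. NKX2-1, LHX6, MAF and ZEB2 had peaks in at least 3 MYT1L libraries, against 56.8% of all genes.

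**Figure D1:**
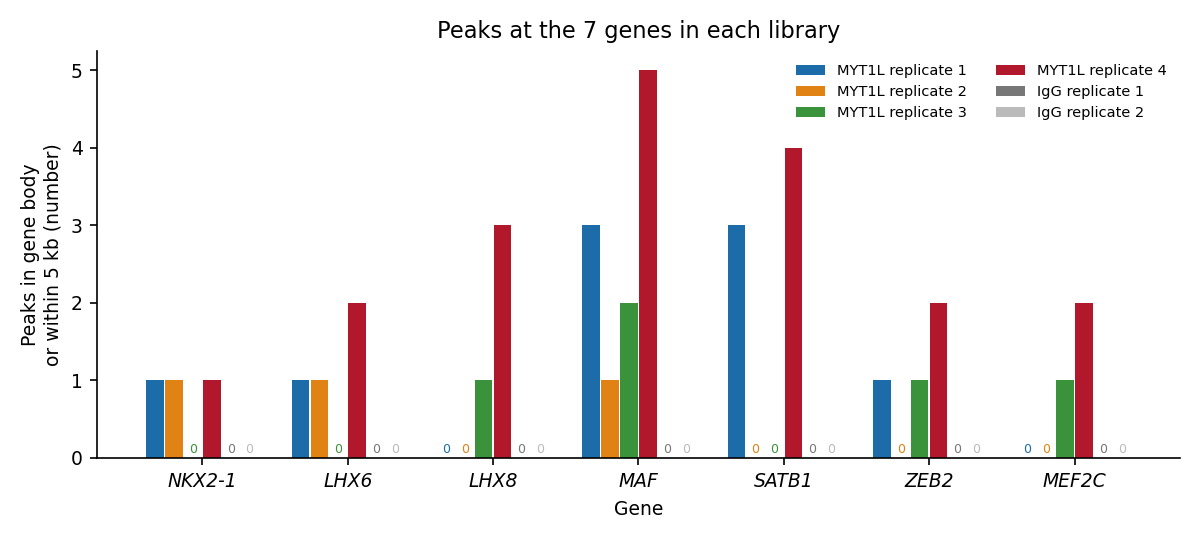
Number of peaks in the body of each gene or within 5 kb of it, one bar per library, with 0 printed where a library had none. MYT1L replicate 4 has the highest or equal highest count at every gene, with 5 at MAF, and both IgG libraries are at 0 throughout.

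Depth differed between libraries, which limits how an absence in a shallower library can be read. Estimated from the background values, MYT1L replicates 1 to 4 had 5.99, 2.25, 5.26 and 4.78 fragments per kb of genome, and the IgG replicates 1.55 and 0.949. By this estimate replicates 1 and 3 were deeper than replicate 4. Even so, replicate 1 lacked peaks at LHX8 and MEF2C, and replicate 3 at NKX2-1, LHX6 and SATB1, where replicate 4 had them. At the genome-wide background of its library a peak needed 5 to 7 fragments in the MYT1L lists, a fold of 3.66 to 4.22, and 4 or 5 fragments in the IgG lists, a fold of 4.20 to 4.51. Pileup and background were scaled to the depth of another library, and a peak was kept if it passed that library's lowest deposited −log10 p. This cutoff was 5.54 for IgG replicate 1 and 4.73 for MYT1L replicate 2. The lowest values of the MYT1L lists were 4.24 to 4.73, so depth and a stricter cutoff are not told apart in these losses. Scaled to IgG replicate 1, 4 of the 36 MYT1L peaks would still have been called, all of them from replicate 4. These were the peaks at NKX2-1, at the start of MAF, in ZEB2 and at an internal start of MEF2C. A peak in IgG of the strength of the other 32 was therefore not detectable at that depth and cutoff. Scaled to MYT1L replicate 2 in the same way, replicate 1 kept 1 of its 9 peaks at these genes. Replicate 3 kept 0 of 5 and replicate 4 kept 12 of 19. The corresponding numbers over all peaks were 8682 of 27926, 8364 of 18966 and 18455 of 30086.

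**Figure D2:**
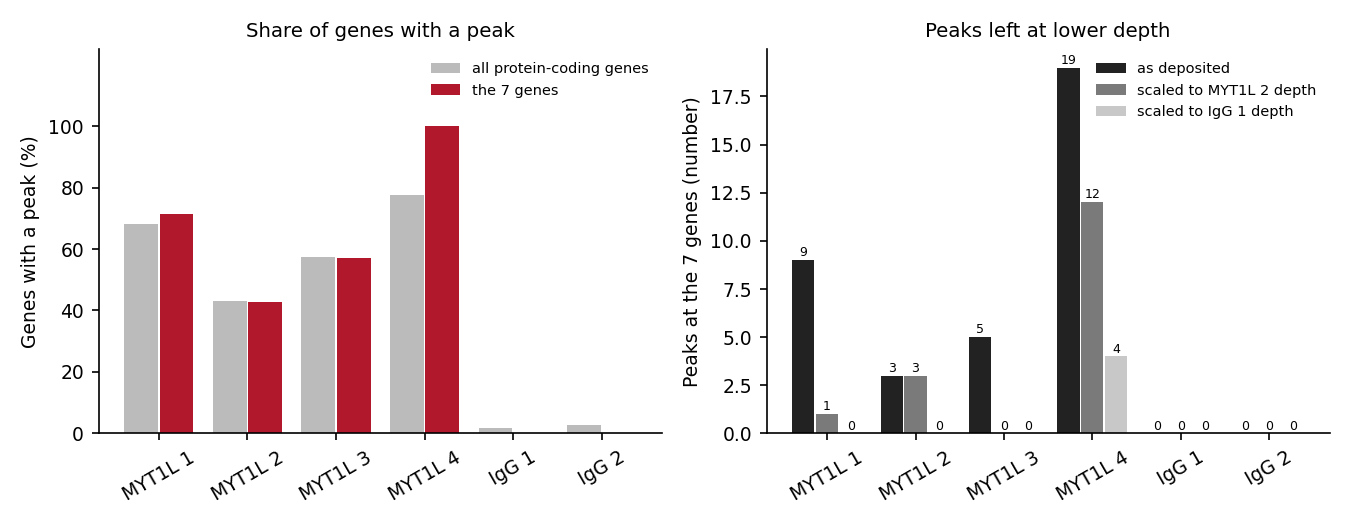
Left, percent of all protein-coding genes (grey) and of the 7 genes (red) with a peak in each library. Right, number of peaks at the 7 genes as deposited and after scaling to the depth and cutoff of MYT1L replicate 2 and of IgG replicate 1. At the last, 4 peaks of MYT1L replicate 4 are left.

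Peaks that overlapped between MYT1L libraries were joined into regions, giving 26 at the 7 genes. A single library supplied 19 regions, while 4 regions joined 2 libraries, 3 joined 3 libraries and 0 joined all 4. A region in at least 3 of the 4 libraries with no IgG peak is called shared here. NKX2-1, MAF and ZEB2 had 1 shared region each, and LHX6, LHX8, SATB1 and MEF2C had none. Among all protein-coding genes 48% had a shared region, so 3 of 7 is close to the background, and 0 of 7 genes had a region in all 4 libraries against 25.3%. With 2 libraries enough, LHX8 and SATB1 joined the first 3, giving 5 of 7 genes against 65.3%. Long windows catch more peaks: 34.7% of genes under 20 kb had a shared region, 55.1% of those from 20 to 100 kb and 67.6% of those over 100 kb. NKX2-1 is the single member of the first class and had one, LHX6 and LHX8 in the second had none, and MAF and ZEB2 had one among the 4 genes of the third. The count of 3 genes changed with the libraries used and with the number required. Without MYT1L replicate 4, and asking for 2 of the other 3 libraries, only MAF was left, where 9868 of all 20033 genes had a region. Without replicate 2 under the same rule there were 5 genes, the same 5 as with 2 of all 4 libraries, and 12685 of all genes.

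The start sites of the genes are taken from RefSeq, which gives 20 start windows for the 7 genes, each of 300 bases, 250 before the start and 50 from the start on. Start windows were available for all 7 members and for 15842 protein-coding genes. A MYT1L peak overlapped a start window of 2 of the 7 genes, SATB1 and MEF2C, against 66.4% of the genes with windows. No start window was available at the outer end of LHX6 (122228957). A replicate 4 peak that spans this end, 122228746 to 122229020, is therefore not counted here. It was SATB1 alone for at least 2 libraries, against 53.3%, and none for at least 3 libraries, against 38.3%. By library, a window was covered at 1 of the 7 genes in replicate 1 (46.3% of all), at 0 in replicates 2 and 3 (26.6% and 40.3%) and at 2 in replicate 4 (63.7%). IgG replicates 1 and 2 covered windows at 0 of the 7 genes, against 0.537% and 1.53%. The starts of these genes were thus covered less than those of genes at large in every MYT1L library, a difference that was not tested. Counted by summits, 16 of the 36 peaks (44.4%) lay within 1 kb of a start of their gene, against 55.4% of the 61807 such gene and peak pairs over all genes with start windows. The sequences below are shown because the first pair lies under MYT1L peaks, while the second pair is next to shared regions without being covered by a peak. Capitals mark AAGTT or its reverse complement AACTT, and each sequence is read 5′ to 3′ on the minus strand of GRCh38.p14.
SATB1, internal start, chr3:18425290-18425589: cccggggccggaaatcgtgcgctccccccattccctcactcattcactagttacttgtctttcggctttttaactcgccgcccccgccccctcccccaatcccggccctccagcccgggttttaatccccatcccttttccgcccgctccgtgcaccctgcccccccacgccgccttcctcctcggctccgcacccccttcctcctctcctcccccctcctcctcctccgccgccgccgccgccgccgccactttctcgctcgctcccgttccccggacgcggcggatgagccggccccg
MEF2C, internal start, chr5:88883135-88883434: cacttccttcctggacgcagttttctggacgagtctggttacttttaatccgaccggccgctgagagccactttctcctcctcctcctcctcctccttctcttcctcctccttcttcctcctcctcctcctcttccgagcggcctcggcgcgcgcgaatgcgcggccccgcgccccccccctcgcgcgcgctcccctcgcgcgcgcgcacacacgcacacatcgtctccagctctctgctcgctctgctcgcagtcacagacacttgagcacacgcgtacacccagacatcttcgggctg
MAF, chr16:79600688-79600987: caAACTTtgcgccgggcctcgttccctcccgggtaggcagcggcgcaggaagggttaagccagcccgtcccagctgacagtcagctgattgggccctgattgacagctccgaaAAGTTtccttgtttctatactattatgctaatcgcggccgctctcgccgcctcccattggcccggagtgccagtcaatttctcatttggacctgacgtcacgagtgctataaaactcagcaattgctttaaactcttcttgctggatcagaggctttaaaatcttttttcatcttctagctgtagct
NKX2-1, inner start, chr14:36519507-36519806: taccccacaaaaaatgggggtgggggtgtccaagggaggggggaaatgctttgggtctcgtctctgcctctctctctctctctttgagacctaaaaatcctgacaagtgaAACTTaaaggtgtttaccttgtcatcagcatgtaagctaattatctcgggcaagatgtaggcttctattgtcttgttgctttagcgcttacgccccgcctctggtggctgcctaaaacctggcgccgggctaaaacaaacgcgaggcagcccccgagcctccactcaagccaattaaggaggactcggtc

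AAGTT on either strand was present in 9 of the 20 windows of the 7 genes and in 30.05% of the 22198 windows of all protein-coding genes. The longer form AAAGTTT, which contains the first, was in 3 of the 20 and in 3.66% of all windows. Both matches in the MAF window were of the longer form, 1 on each strand. The windows under MYT1L peaks at SATB1 and MEF2C, 3 in all, held 0 matches; over all genes 21.8% of the 13019 windows under a MYT1L peak held AAGTT. Of the windows shown above, those of SATB1 and MEF2C had 70.7% and 64.7% G and C, and those of MAF and NKX2-1 had 51.7% and 52%. This contrast did not hold for the other windows of the 7 genes. The covered window at the outermost SATB1 start had 56.7%. Windows without a peak at the outer NKX2-1 start and at an LHX6 start had 69% and 67%. A match is a run of letters and not a measured binding site, and the sequences under the peaks themselves were not analysed here.

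NKX2-1 encodes the homeodomain factor that specifies the medial ganglionic eminence. The gene (ID 7080, chromosome 14, 36516397 to 36520232, minus strand) is the shortest of the 7 at 3836 bp. It had 1 peak in each of MYT1L replicates 1, 2 and 4 and 0 in replicate 3 and in both IgG libraries. The folds were 4.00, 3.85 and 4.17 in replicates 1, 2 and 4, a mean of 4.01 ± 0.159 (SD, n = 3), from pileups of 23, 12 and 39 fragments. The 3 values lie close together and are low, higher than 16.5%, 2.60% and 14.0% of the peaks in their own lists.

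The NKX2-1 peaks were high in their lists by local background, though low by fold. That background was 4.22, 5.64 and 9.60 times the genome-wide background in replicates 1, 2 and 4, above that of 94.5%, 93.3% and 98.3% of the peaks in those lists. Which library the caller counted this background from is not given, so it need not be the density of MYT1L fragments around the gene. The shared region, 36517646 to 36518962, lies within the gene body and also within the body of the overlapping lncRNA gene SFTA3. The peaks of replicates 1 and 2 in it shared 0 bp, with summits 926 bp apart, and were joined by the 1261 bp peak of replicate 4. The summits lay 980, 1906 and 1555 bp downstream of the inner start in replicates 1, 2 and 4.

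LHX6 encodes a LIM-homeodomain factor that acts downstream of NKX2-1 in migration and subtype choice. The gene (ID 26468, chromosome 9, 122202582 to 122228957, minus strand) had 1, 1, 0 and 2 peaks in MYT1L replicates 1 to 4 and 0 in both IgG libraries. Each of the 4 peaks was a region of its own, so 3 libraries had a peak at LHX6 but no position was called in more than 1. The strongest, 122228746 to 122229020 in replicate 4, had a fold of 6.25 and a pileup of 20 fragments, and its summit lay 89 bp inside the outer end of the gene and 435 bp upstream of the nearest RefSeq start. The other peak of replicate 4, 7414 bp downstream of the innermost start, had a fold of 4.96. The peaks of replicates 1 and 2 had folds of 4.18 and 4.06, at 380 and 1862 bp downstream of a start.

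LHX8 encodes the related LIM-homeodomain factor needed for cholinergic neurons of the basal forebrain. The gene (ID 431707, chromosome 1, 75128434 to 75199454, plus strand) had 0, 0, 1 and 3 peaks in MYT1L replicates 1 to 4 and 0 in both IgG libraries. Replicates 3 and 4 met in 1 region, 75136312 to 75136723, with folds of 4.59 and 4.79, summits 188 bp apart and 236 bp in common. That region lies about 2 kb inside the gene from its second start (1975 and 2163 bp). The remaining peaks of replicate 4 were 3149 bp upstream of the gene, with a fold of 5.28 from 9 fragments, and 53050 bp into it, with a fold of 3.69 from 6 fragments. LHX8 was the one gene with no peak of a deposited −log10 q of at least 5 in any library, whereas each of the other 6 had such a peak in replicate 4.

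MAF encodes a basic leucine zipper factor of migrating interneurons. The gene (ID 4094, chromosome 16, 79202622 to 79600737, minus strand) is the longest of the 7 at 398116 bp and was the one gene with a peak in all 4 MYT1L libraries, against 32.8% of all genes. It had 3, 1, 2 and 5 peaks in replicates 1 to 4 and 0 in both IgG libraries, so the groups did not overlap there, as they did not at 30.6% of all genes. MAF also had the single shared region whose peaks all overlapped one another, 79599493 to 79600457, just inside the gene at its start. The folds there were 4.87, 4.28 and 8.19 in replicates 1, 3 and 4, a mean of 5.78 ± 2.11 (SD, n = 3), from 12, 9 and 37 fragments. The value of replicate 4, higher than 79.3% of its list, stands well above the other 2.

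The summits of this MAF region lay 756, 478 and 650 bp downstream of the start in replicates 1, 3 and 4. Replicate 4 had further peaks on either side, with summits 1826 bp downstream (fold 3.91) and 339 bp upstream of the start (fold 3.21), the latter inside the neighbouring lncRNA gene LOC101928230. The other 6 peaks were spread through the gene from 47285 to 371147 bp downstream of the start, each in 1 library, with folds of 3.93 to 4.95 and 7 to 9 fragments. MYT1L replicate 2 had its only MAF peak among these, 171295 bp into the gene.

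SATB1 encodes a chromatin organiser that supports the maturation of somatostatin interneurons. The gene (ID 6304, chromosome 3, 18345377 to 18445592, minus strand) had 3, 0, 0 and 4 peaks in MYT1L replicates 1 to 4 and 0 in both IgG libraries. The libraries split evenly, since replicates 1 and 4 each had several peaks and replicates 2 and 3 none. All 3 peaks of replicate 1 were met by a peak of replicate 4. At the internal start shown above, 18425274 to 18426144, the folds were 6.16 and 6.34, a mean of 6.25 ± 0.124 (SD, n = 2), with 731 bp in common. The SD is the smallest of any region at the 7 genes, and the replicate 1 peak stood above 79.9% of its list.

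A further pair of SATB1 regions lay at the outer end of the gene. That at 18443524 to 18443992 had folds of 4.91 and 5.39, with summits 28 bp apart, the closest summits of any pair at these genes. That at 18444978 to 18445670 had folds of 4.72 and 6.33, overlaps the antisense gene SATB1-AS1, and its replicate 1 peak covered the outermost start. The fourth peak of replicate 4, 386 bp downstream of the internal start, had a fold of 5.42. Every SATB1 summit lay within 1 kb of a start, at distances of 121 to 562 bp. Scaled to the depth and cutoff of replicate 2, 1 of the 3 SATB1 peaks of replicate 1 and all 4 of replicate 4 would still have been called. By the depth estimate replicate 2 was shallower than replicate 4, and replicate 3 was deeper. The part of depth in the absence of SATB1 peaks from replicates 2 and 3 was not tested.

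ZEB2 encodes a zinc-finger and homeodomain repressor that directs interneurons towards the cortex. The gene (ID 9839, chromosome 2, 144384081 to 144520119, minus strand) had 1, 0, 1 and 2 peaks in MYT1L replicates 1 to 4 and 0 in both IgG libraries. The shared region, 144516590 to 144517604, had folds of 4.45, 5.27 and 6.44 in replicates 1, 3 and 4, a mean of 5.39 ± 1.002 (SD, n = 3). As at NKX2-1, a wide peak of replicate 4 (1015 bp) joined peaks that shared 0 bp, those of replicates 1 and 3, whose summits were 609 bp apart. The 3 summits lay 2782 to 3391 bp downstream of the start. The second peak of replicate 4 lay 4298 bp upstream of the gene, overlapping the lncRNA genes LINC01412 and LINC02993, and had a fold of 6.22.

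MEF2C encodes a MADS-box factor required for parvalbumin interneurons. The gene (ID 4208, chromosome 5, 88717117 to 88904105, minus strand) had 0, 0, 1 and 2 peaks in MYT1L replicates 1 to 4 and 0 in both IgG libraries, and no position was called in more than 1 library. The peak of replicate 4 over the internal start shown above, 88883180 to 88883610, had a fold of 7.66 from 22 fragments, higher than 75.1% of its list. A second, 88884128 to 88884346, had a fold of 5.71, and both overlap the antisense gene MEF2C-AS1. The peak of replicate 3 lay 26402 bp downstream of the nearest start, with a fold of 4.39 from 8 fragments.

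**Figure D3:**
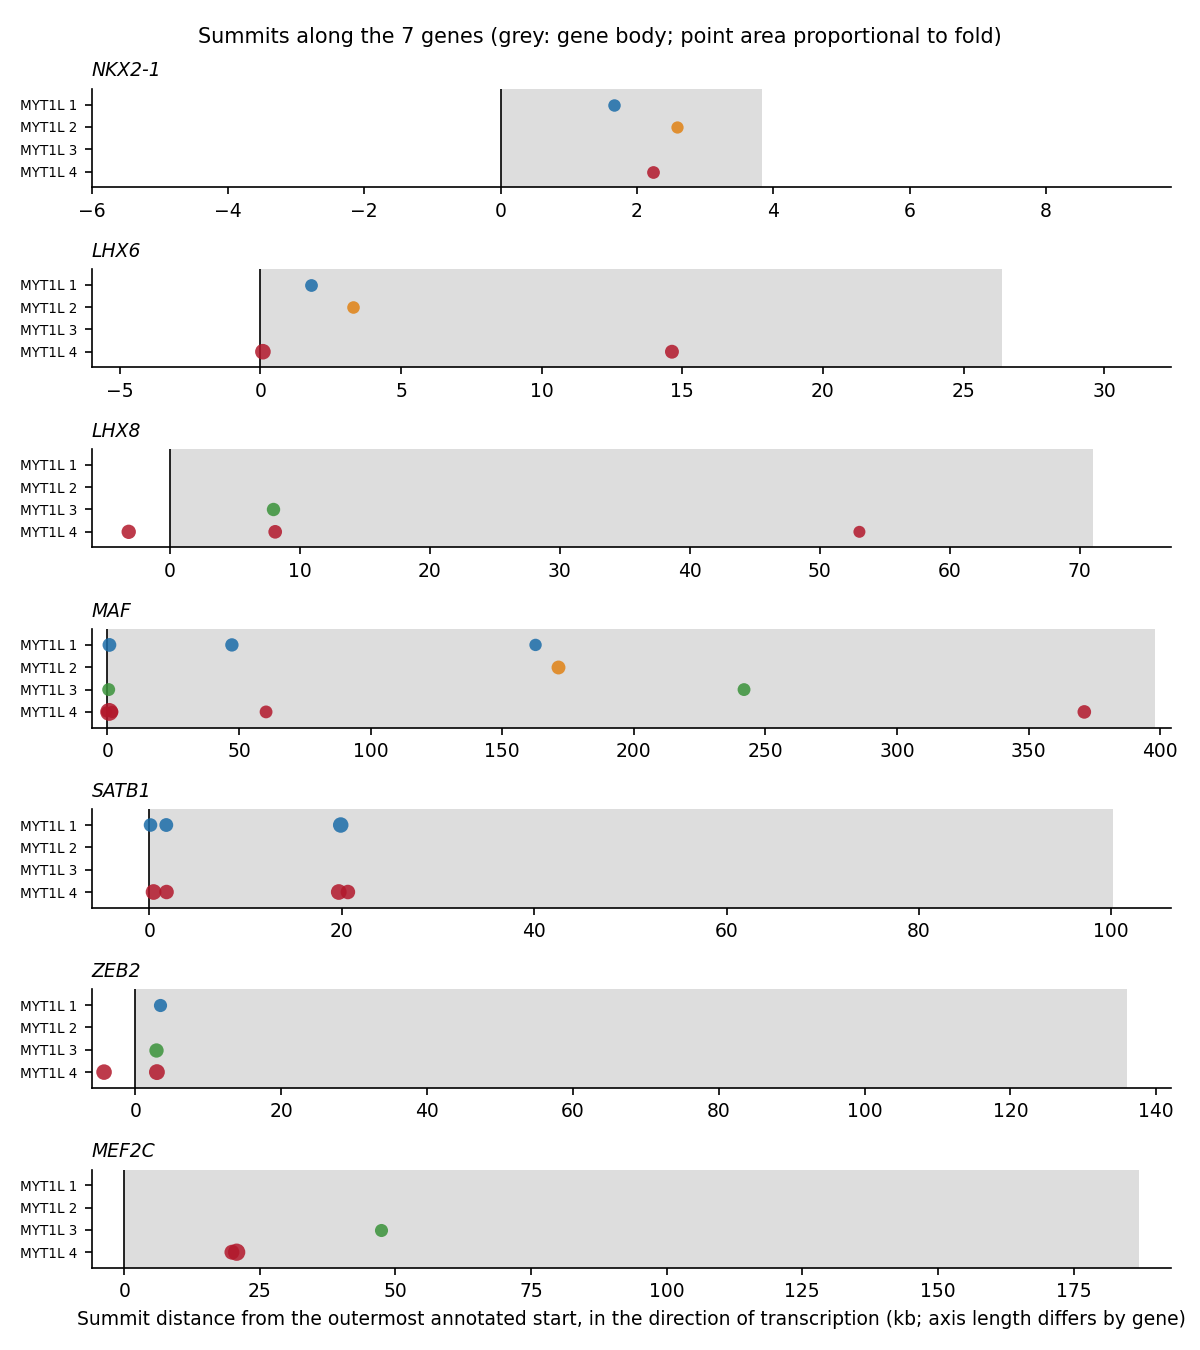
Summits of all MYT1L peaks along each gene, with distance from the outermost annotated start in kb on the x axis and one row per library. For LHX6 the distance is from the outer end of the gene, which has no start window. Grey is the gene body and point area is proportional to fold. The shared regions of NKX2-1, MAF and ZEB2 appear as 3 points near the start, and SATB1 has points in replicates 1 and 4 only.

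The plot of peaks in the shared regions shows how the 3 lists meet. At MAF the peaks of replicates 1 and 3 overlap by 59 bp and each lies within that of replicate 4. At NKX2-1 and ZEB2 the narrower peaks lie on opposite sides of the centre of the replicate 4 peak. When peaks were joined by summits within 200 bp in place of any overlap, MAF alone of the 7 genes had a shared region, while over the whole table the number was 7560 genes in place of 9621.

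**Figure D4:**
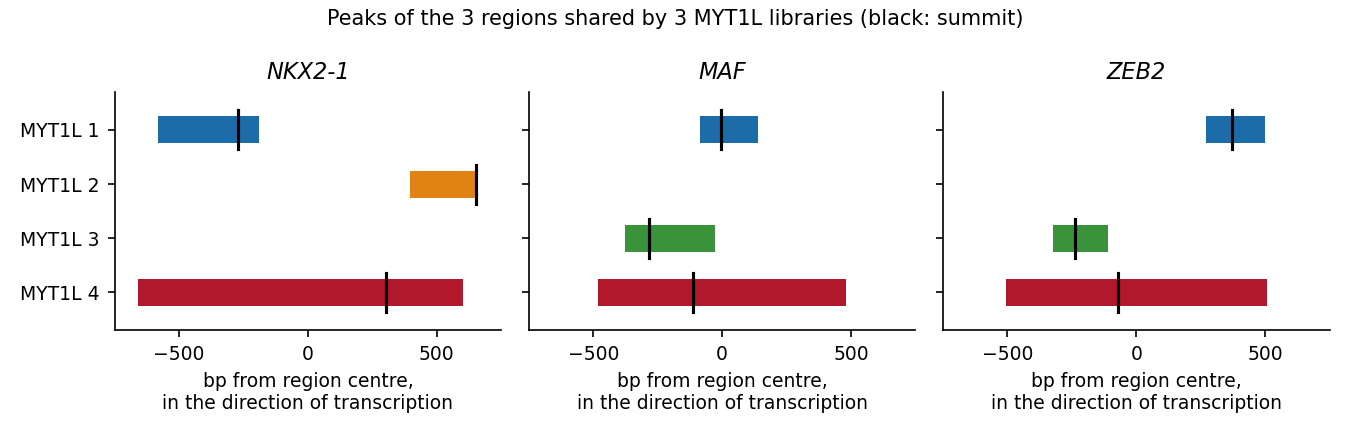
Peaks (bars) and summits (black) of the 3 shared regions by library, as distance in bp from the centre of the region in the direction of transcription. At NKX2-1 the bars of MYT1L replicates 1 and 2 do not meet, at ZEB2 those of replicates 1 and 3 do not meet, and at MAF all 3 bars overlap.

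In order of the highest fold in any library, MAF (8.19) was followed by MEF2C (7.66), ZEB2 (6.44), SATB1 (6.34), LHX6 (6.25), LHX8 (5.28) and NKX2-1 (4.17), each in replicate 4. From ZEB2 to LHX8, neighbours in this order differ by less than the spread between libraries in the ZEB2 region (SD 1.002). The spread of the MAF region (SD 2.11) also covers the gap between MAF and MEF2C. By deposited −log10 q, 14 of the 36 peaks reached at least 5, of which 12 were in replicate 4 and 2 in replicate 1, and 0 in replicates 2 and 3. Over all peaks it was 14386 of 27926, 5331 of 12310, 9765 of 18966 and 19811 of 30086 in MYT1L replicates 1 to 4. At that threshold 0 of the 7 genes had a shared region, while 6135 of all 20033 genes did.

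**Figure D5:**
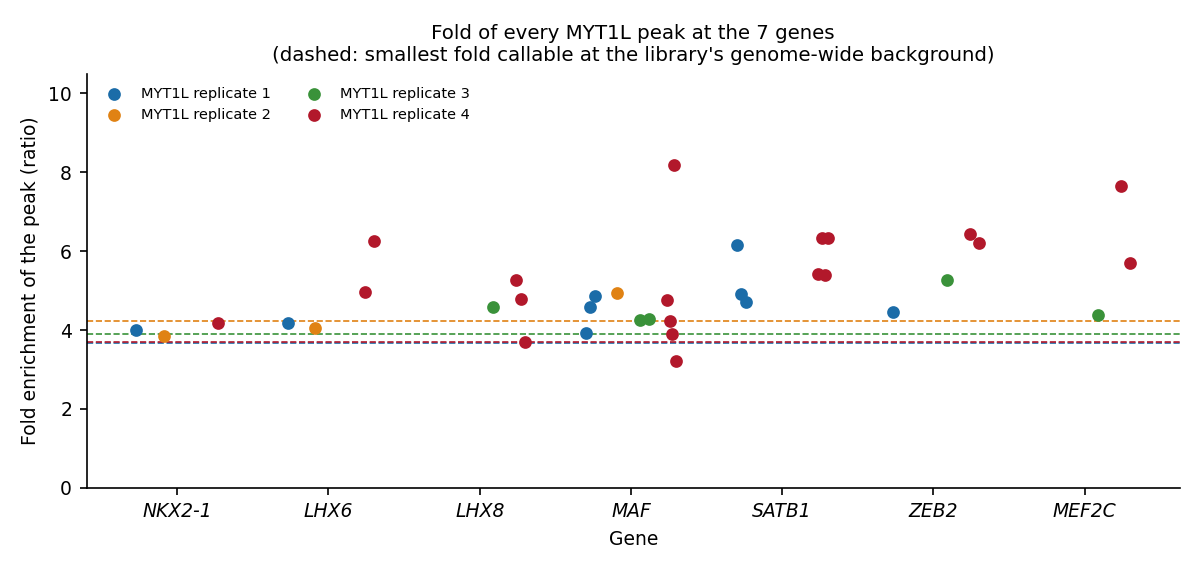
Fold of each of the 36 MYT1L peaks by gene, coloured by library, with dashed lines at the smallest fold that could be called at each library's genome-wide background (3.66 to 4.22). Points below the line of their library, as at NKX2-1 in replicate 2, have a local background above the genome-wide one, and the highest point is MAF in replicate 4 at 8.19.

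The number of peaks per library was compared between antibodies gene by gene. At MAF it was 2.75 ± 1.71 (SD, n = 4) with MYT1L and 0 with IgG, a difference that gave p = 0.133 by exact permutation, two-sided, the smallest p this design allows (adjusted over all 20033 genes, 0.436). At the other 6 genes the MYT1L mean was 0.75 to 1.75 peaks and p ranged from 0.4 to 0.8 in the same exact permutation test (adjusted p 0.730 to 1). The ranges of the groups met at these 6 genes, since at least 1 MYT1L library also had 0. The design cannot reach 0.05, so 0 of 20033 genes passed before or after adjustment. All 7 genes had more peaks on average with MYT1L, as did 83.8% of all genes. The median over the 7 genes was 1 MYT1L peak per library and over all genes 0.75.

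Per window length the order changed. NKX2-1 had 5.42 MYT1L peaks per library and 100 kb, more than 88.1% of all genes, and LHX6 had 2.75, more than 67.4%. The NKX2-1 value rests on 3 peaks in a window of 13.8 kb, most of it the 5 kb margins on either side of the gene. SATB1 had 1.59, LHX8 1.23, ZEB2 0.685, MAF 0.674 and MEF2C 0.381 peaks per 100 kb, with MEF2C above 19.8% of all genes. MAF thus had the most peaks of the 7 in number and the second fewest for its length.

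For 4 genes with peaks in at least 3 MYT1L libraries, the genes most alike were sought by the distance between their 6 values of log2 fold of the strongest peak (0 where a library had none). Nearest to NKX2-1 were LILRB3 (distance 0.0938) and GSDMD (0.111), and nearest to LHX6 were LTF (0.0406) and LRRTM4 (0.0631). TSPY2 (0.0870) and LPCAT1 (0.100) were nearest to MAF, and ZNF485 (0.0387) and PLAU (0.0440) to ZEB2. These are likenesses over 6 libraries, chosen from all genes.

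Other genes of the ventral forebrain programme and the relatives of the 7 genes were described in the same way. Of 38 programme genes, 11 (28.9%) had a shared region, against 48% of all genes, and 2 had one in all 4 libraries, against 25.3%. By role these were 2 of 6 upstream signalling genes (the hedgehog receptor gene PTCH1 and its partner SMO), 7 of 20 partner transcription factor genes, and 2 of 12 effector genes (the guidance receptor genes NRP1 and NRP2). IgG peaks were present at 2 of the 38, NR2F1 and NR2F2, against 4.16% of all genes. The 2 in all 4 libraries were NRP1, with a fold of 6.20 ± 0.713 (SD, n = 4) at chromosome 10, 33334865 to 33335825, and ISL1, a LIM-homeodomain gene, with 5.81 ± 0.735 (SD, n = 4) at chromosome 5, 51382827 to 51383620. Both values are above the mean of the NKX2-1 region. The programme count was 13 without MYT1L replicate 4 and 23 without replicate 2, with 2 of 3 libraries sufficing. Over all genes the counts were then 9868 and 12685.

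Of 23 relatives by gene family, 9 (39.1%) had a shared region, against 48% of all genes, and 5 had one in all 4 libraries, against 25.3% of all genes. Among these 5, the 4 with the highest mean fold were NRL, ZEB1, NKX2-8 and NKX2-4. NRL, of the MAF family, had 9.39 ± 3.599 (SD, n = 4) at chromosome 14, 24113791 to 24115161. ZEB1, the paralog of ZEB2, had 6.14 ± 0.362 at chromosome 10, 31319215 to 31320887, with all 4 libraries close together. NKX2-8, which neighbours NKX2-1 on chromosome 14, had 6.08 ± 1.56 at 36580832 to 36581527, and NKX2-4 had 5.88 ± 0.403 at chromosome 20, 21395920 to 21397545 (SD, n = 4 each). The fifth was MEF2A, the MEF2C relative, with 5.04 ± 1.31 (SD, n = 4) at chromosome 15, 99565236 to 99566694. The lists describe these counts only, and whether they differ from other lists was not tested.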

How the data were processed

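CUT&RUN peak lists of 6 libraries of H1-derived cells were used, 4 MYT1L and 2 IgG, grouped and numbered by the sample titles. The sample numbers inside the MYT1L peak names are each 1 higher than those of the titles, which were followed. Peaks were called with MACS2 on hg38, per the submitters' processing notes; aligner, parameters and control library are not given in the sources used here. The deposited fold is a ratio over the caller's background, the deposited −log10 p and −log10 q are the authors' values per peak, and the deposited score is 10 times the −log10 q, cut to a whole number, and was not used. The lowest deposited −log10 q was 2.00 to 2.01 in every list.

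Coordinates count from 1. Peaks on chromosomes 1 to 22, X and Y were assigned to RefSeq GRCh38.p14 genes with a 5000 bp margin; exons and introns were not assigned. MYT1L peaks sharing at least 1 bp formed regions. Pileups were solved as whole numbers that give both fold and −log10 p by the MACS formulas within 0.0002, which held for at least 99.9% of peaks with a −log10 p up to 200. Depth is the most frequent background among the peaks of a list, taken as its genome-wide background, over the fragment length (187.1 to 212.3 bp). The fragment length is from the steps between local backgrounds, and total read numbers are unknown. MYT1L peaks scaled to another library also had to pass its lowest −log10 p. Peak numbers were tested by exact permutation over 15 splits, two-sided, with Benjamini-Hochberg adjustment over 20033 genes. The permutation test and the pileup solution were tested on simulated data, and the regions of these peaks against bedtools. The other steps, depth scaling among them, had no such test. Python 3.11.15, numpy 2.4.6, scipy 1.17.1, pandas 2.3.3 and matplotlib 3.10.9 were used.

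The 7 genes are all named whatever their values; listed programme genes and relatives are named where a region is in all 4 libraries (the 4 highest folds per list), beside PTCH1, SMO, NRP2, NR2F1, NR2F2 and MEF2A, which were named after their values were seen. Likeness names the 2 nearest genes per member. The members, the lists and the tests were chosen with earlier results of these data known. Alternatives covered peak strength, window, summit placement, overlap, library number, IgG filter, peak number, depth, pairing and left-out libraries.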

Additional observations from a re-analysis of the deposited data

Results flagged for a closer look

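The MYT1L libraries had 1, 1, 0 and 1 peaks at NKX2-1 in replicates 1 to 4, and the 0 in replicate 3 stands apart from the other libraries by a rule on the gap between a sample and its nearest neighbour relative to the range of the group. Of the 7 genes examined this way, 1 was picked out. For continuous values chance picks out about 1 in 20 groups. With tied counts such as these, where 1 library differs from 3 equal ones, the gap always equals the range, so that rate need not hold.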

How the results depend on the processing

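The IgG lists had 0 peaks at all 7 genes as deposited. The mean difference in peaks per library (MYT1L minus IgG) could therefore not fall below 0 where a setting only removes peaks or libraries, and its sign is no measure of stability. It became 0 at LHX8 with a −log10 q of at least 5, with equal numbers of peaks and when scaled to the shallowest MYT1L library, and 0 at LHX6, LHX8 and SATB1 when scaled to the deeper IgG library. Since no split of these 6 libraries can give a p under 0.05, the p-values are no measure of stability; adjusted p ran from 0.227 to 1 over the alternatives (exact permutation test). With the replicate block, which pairs the same-numbered libraries 1 and 2, the differences were 1 at NKX2-1 and LHX6, 0 at LHX8 and MEF2C, 2 at MAF, 1.5 at SATB1 and 0.5 at ZEB2, and 0 genes passed before or after adjustment (exact sign-flip test, smallest p 0.5). The labels do not say that same-numbered libraries pair. Their deviations from the group means correlated at 0.0104 and -0.0103 over genes. The deviations of the 2 IgG libraries mirror each other, and 4.16% of all genes had an IgG peak. These correlations therefore cannot show whether the libraries pair.

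Genes of the 7 with a shared region (3), the number of these regions (3), and the programme genes (11), relatives (9) and all genes (9621) with one depended on the settings as follows. With a −log10 q of at least 5 they were 0, 0, 6, 4 and 6135, and when scaled to the shallowest MYT1L library 0, 0, 5, 5 and 5641. With all 4 libraries required they were 0, 0, 2, 5 and 5074. With 2 of 4 libraries they were 5, 7, 23, 12 and 13090. Summits within 200 bp gave 1, 1, 5, 5 and 7560, and equal numbers of peaks 1 (NKX2-1), 1, 7, 5 and 6744. With 50 kb around the genes they were 4, 5, 18, 15 and 14172. Leaving out each library in turn gave 1 to 5 genes, 1 to 7 regions, 11 to 23 programme genes, 9 to 11 relatives and 9749 to 12685 genes. Where a MYT1L library was left out, 2 of the remaining 3 sufficed, and the lowest counts were 13 programme genes and 9868 genes. Where an IgG library was left out, 3 of 4 MYT1L libraries were still required, and the lows of 11 and 9749 came from there. Fewer peaks or another number of libraries follow from most of these settings; beyond that the cause was not tested. Gene body only, summits in the window and keeping IgG regions left NKX2-1, MAF and ZEB2 as the genes with a shared region.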

Other observations

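Within 50 kb of the 7 genes, LHX6 was the one that gained shared regions without IgG peaks. That made 4 of the 7 genes with a shared region at this distance, where 14172 of all 20033 genes had one, so a gain is common. The nearer, on chromosome 9 from 122264406 to 122265111, lay 35.4 kb outside the gene, had a peak in all 4 MYT1L libraries with a fold of 7.97 ± 2.44 (SD, n = 4), and overlaps the genes RBM18 and MRRF. The other, from 122159423 to 122160028, lay 42.6 kb away on the other side, had a fold of 5.86 ± 1.59 (SD, n = 3), and overlaps NDUFA8 and MORN5. RBM18 encodes an RNA-binding protein, MRRF a mitochondrial ribosome recycling factor and NDUFA8 a subunit of respiratory complex I. The wider window added no shared region at LHX8, SATB1 or MEF2C, nor a second one at NKX2-1, MAF or ZEB2.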
